A study of Takifugu fasciatus with 6 samples.

Results

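The transcripts described here encode the subunits of the nuclear RNA polymerases in the liver of the pufferfish Takifugu fasciatus under cold stress. Members were the genes of the deposited table whose Swiss-Prot match is named as a DNA-directed RNA polymerase or as an RNA polymerase I-specific protein, and the rule found 32 of 20990 genes. By the names of their matches, 7 belong to RNA polymerase I (Pol I), 5 to Pol II and 9 to Pol III. A further 7 encode shared subunits, of which 2 are common to Pol I and Pol III and 5 to all of the nuclear enzymes. The remaining members are the mitochondrial polymerase POLRMT and 3 short gene models, each under 1000 bases, that match part of a largest subunit. Subunits RPA12, RPB7, RPB9, RPC4 and RPC10 were not analysed here.

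Juvenile fish were acclimated at 26 °C for 2 weeks. The control group (CG: G1, G2 and G3) stayed at 26 °C, whereas the experimental group (EG: Ga, Gb and Gc) was cooled to 19 °C, held there for 12 h, cooled again and kept at 12 °C for 24 h. Each of the 6 libraries was made from pooled liver of 6 fish, so the tests measure the spread between pools. The comparison of EG with CG asks which liver transcripts respond to low water temperature.

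Pol I makes the large ribosomal RNA precursor in the nucleolus, Pol II makes messenger RNA, and Pol III makes transfer RNA, 5S ribosomal RNA and other small RNAs. Each enzyme has a catalytic core of a largest and a second largest subunit, an assembly heterodimer that starts its construction, a stalk that protrudes from the core, and small subunits that are common to all of the enzymes. Synthesis of ribosomal and transfer RNA is a large part of transcription in growing cells and is known to follow nutrient and stress signals.

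Total counts ranged from 31150888 to 45548824 per library. Spearman correlations between libraries lay from 0.958 to 0.983 within a group and from 0.870 to 0.905 between the groups, and no pair of replicates agreed within sampling noise. The tissue was checked with marker genes. Summed over 16 gene models of hepatocyte markers, levels ran from 215102 to 242914 CPM in CG and 261268 to 319167 CPM in EG. Of these models, several of which share a gene name, 8 were higher and none lower in EG. TF alone held 121050 to 164694 CPM per library and was not called (log2 fold change 0.08). Of the tested markers of other cells none was called higher. The 5 erythrocyte genes summed to between 3995 and 10360 CPM in CG and between 1978 and 4125 CPM in EG, with 2 lower. The 9 matched leukocyte genes summed to between 35.6 and 58.4 CPM in CG and between 14.5 and 29.3 CPM in EG, with 2 of the 6 tested lower. Among endothelial and stellate genes 4 of 16 tested were lower (sum over 19 matched genes 1316 to 1703 CPM in CG, 824 to 1469 CPM in EG). These 4 were models of LRAT and PECAM1, while CDH5, KDR and TIE1 were not called. Among exocrine pancreas genes 1 of 11 tested was lower (sum over 16 matched genes 5466 to 23633 CPM in CG, 570 to 20798 CPM in EG). Of all tested genes 23.7% were higher and 21.7% lower, so the counts of lower endothelial, stellate and pancreas genes lie near or under that share. The part of these markers in the results on the polymerases was not tested. In bulk tissue, fewer cells of a type and less RNA per cell cannot be told apart.

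All 32 members passed the low-count filter. Levels are given as CPM on the TMM scale of edgeR, in which counts are divided by the scaled size of their library, and calls rest on edgeR's quasi-likelihood test with an adjusted p under 0.05 over 14357 genes. In EG, 15 members were called higher and 2 lower, and the other 15 did not pass. Among all tested genes, 23.7% were called higher and 21.7% lower. With a fold change over 2 as well, 8 members were higher and none lower, against 13.7% and 15.4% of all genes. At an unadjusted p under 0.05, 17 members were higher and 3 lower, against 27.2% and 25.9% of all genes. The EG libraries lay wholly above the CG libraries for 15 members and wholly below them for 4, against 29.0% and 28.8% of all genes. The median log2 fold change of the members was 0.52, and that of all genes was -0.03. Without the 3 short gene models, 14 of 29 members were higher and 2 lower, with a median of 0.60.

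The calls depend on how libraries are scaled. On library totals alone, the median of all genes moved to -0.37, the calls over all genes went from 3398 higher and 3113 lower to 2024 and 4514, and the members from 15 and 2 to 8 and 5. The increases of RPA2, RPA43, RPA49, RPC6, RPABC4, RPABC5 and a short gene model were then not called (adjusted p from 0.0505 to 0.557), and RPB1, RPB3 and RPC7L were called lower. The median of the members stood 0.55 above that of all genes on both scales. A change of scale moves all genes nearly alike, so it could hardly alter this distance. The distance was 0.25 under a filter of 10 CPM in 3 libraries and 0.40 with limma on log2(FPKM + 1).

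**Figure D1:**
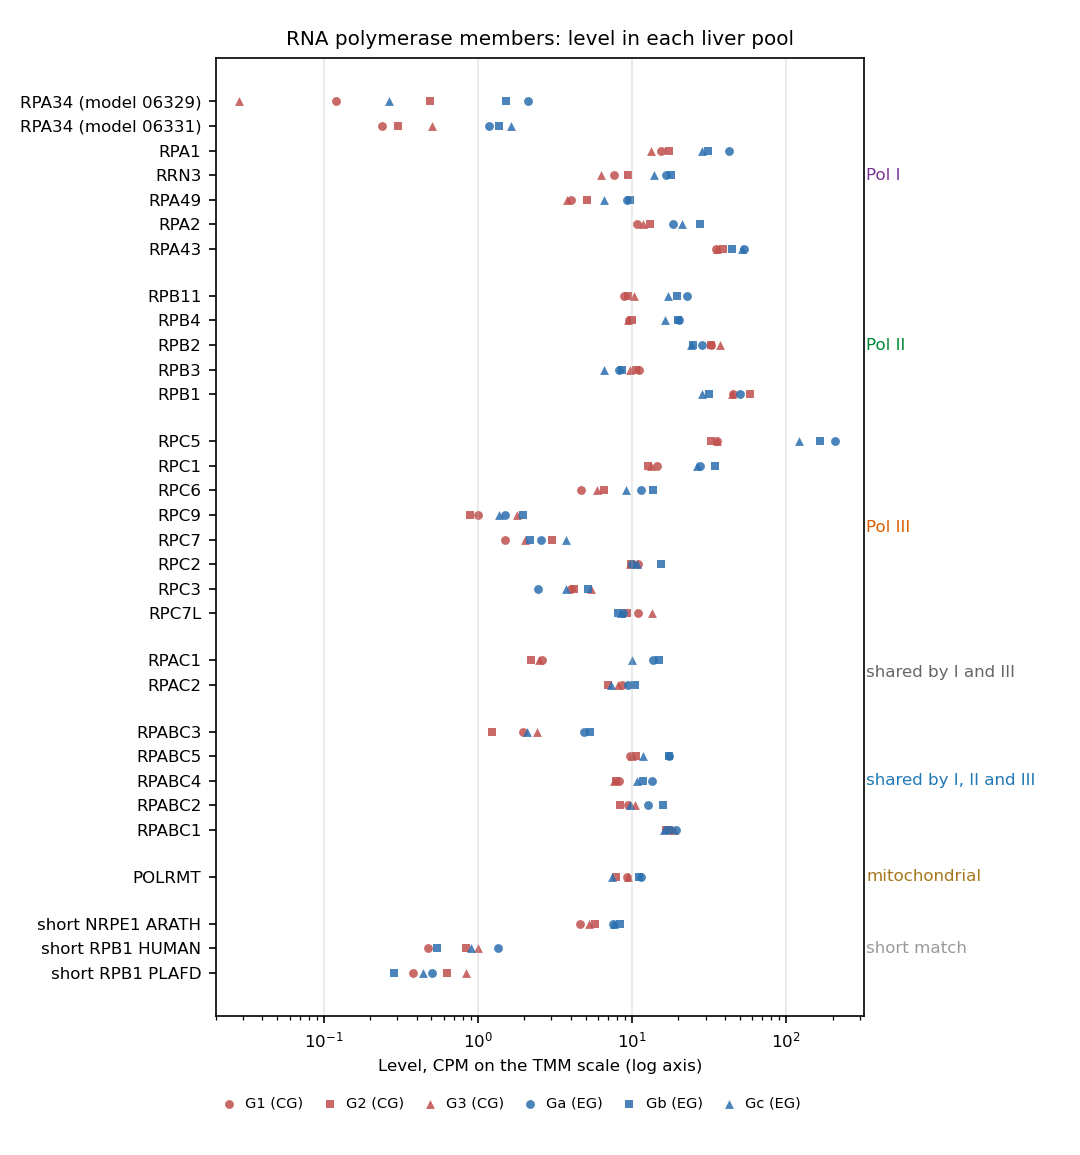
Level of each member reported in each library, in CPM on the TMM scale (log axis), with CG libraries in red and EG libraries in blue and members grouped by enzyme. RPC5 moves from between 32.5 and 35.6 CPM in CG to between 121 and 207 CPM in EG, while RPB2 is lower in every EG library.

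Of the 7 Pol I members, 6 rose and none fell, against 23.7% and 21.7% of all tested genes. Their fitted log2 fold changes ran from 0.45 to 2.59, with a median of 1.04. RPA1 (POLR1A), the largest and catalytic subunit, stood at 15.4, 17.3 and 13.3 CPM in G1, G2 and G3 and at 42.5, 31.03 and 28.6 CPM in Ga, Gb and Gc. All EG libraries were above all CG libraries, and the log2 fold change was 1.15 ± 0.192 (standard error, adjusted p = 0.00216). RPA2 (POLR1B), which forms the catalytic cleft together with RPA1, stood at 10.7, 13.1 and 11.8 CPM in CG and at 18.6, 27.5 and 21.0 CPM in EG. The groups did not overlap for RPA2 either, and it rose by 0.91 ± 0.184 (adjusted p = 0.00519).

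RPA49 and RPA34 form a heterodimer that resembles the Pol II factor TFIIF and aids initiation and elongation. RPA49 (POLR1E) was measured at 4.03, 5.07 and 3.78 CPM in CG and at 9.23, 9.75 and 6.58 CPM in EG. It rose by 0.99 ± 0.227 (adjusted p = 0.00910). RPA34 had a pair of gene models, both matched to mouse Cd3eap, on the minus strand of scaffold 19. One lay at positions 284394 to 285961 and the other at 271305 to 272869, with 11524 bases and 2 other gene models between them. Reads of models with 1 match may have been split between them by the counting, so their values are uncertain. The first of these models had 0.239, 0.302 and 0.504 CPM in CG and 1.17, 1.37 and 1.64 CPM in EG, and rose by 2.01 ± 0.464 (adjusted p = 0.00930). The second was counted at 5, 21 and 1 reads in CG and at 79, 48 and 9 reads in EG, and its 2.59 ± 1.00 did not pass the test (adjusted p = 0.0661). It passed without G2 (4.10, adjusted p = 0.0315) or without Gc (3.08, adjusted p = 0.0334), the libraries in which it was nearest to the other group, and with DESeq2 on all libraries (2.60, adjusted p = 0.0189). Both models were the lowest of the members by length-scaled level, at 0.404 and 0.242 FPKM in CG.

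RRN3, also called TIF-IA, is the initiation factor that joins Pol I to the promoter complex and through which growth signals reach the enzyme. Its levels were 7.62, 9.49 and 6.33 CPM in CG and 16.6, 17.8 and 13.9 CPM in EG. It was higher in each EG library than in any CG library, and rose by 1.04 ± 0.197 (adjusted p = 0.00380). Its gene model on scaffold 59 lies within that of csn1 on the opposite strand, and csn1 was counted at 514 to 648 reads in CG and 1062 to 1314 reads in EG. Whether the counting used strand is not given in the sources used here, so reads of the overlapping models cannot be told apart. RPA43 (twistnb), the stalk subunit to which RRN3 binds, was the most abundant Pol I member, at 34.8, 39.1 and 35.7 CPM in CG and 53.6, 44.8 and 51.4 CPM in EG. Its increase of 0.45 ± 0.137 (adjusted p = 0.0280) was the smallest of the Pol I members, and the call was lost without any 1 of G1, G2, G3, Ga or Gc (adjusted p from 0.0522 to 0.105).

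Among the 5 Pol II members, 2 small subunits rose, the second largest subunit fell, and 2 did not pass the test. Of all tested genes 23.7% were higher and 21.7% lower. The median log2 fold change of the Pol II members was -0.40. RPB11 (POLR2J), a partner in the assembly heterodimer, was at 8.83, 9.46 and 10.3 CPM in CG and at 22.9, 19.5 and 17.2 CPM in EG. RPB4 (Polr2d), the stalk subunit that takes part in stress responses in yeast, was at 9.50, 9.997 and 9.41 CPM in CG and at 20.1, 20.0 and 16.3 CPM in EG. Both genes had tight groups that lay well apart. RPB11 rose by 1.06 ± 0.161 (adjusted p = 0.00140) and RPB4 by 0.96 ± 0.149 (adjusted p = 0.00153).

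The core subunits of Pol II gave values on the other side of zero. RPB1 (Polr2a), the largest subunit, whose C-terminal tail couples transcription to RNA processing, was at 45.4, 58.0 and 44.7 CPM in CG and at 49.9, 31.7 and 28.4 CPM in EG. Ga lay within the CG range while Gb and Gc lay below it, and the log2 fold change of -0.43 ± 0.232 did not pass the test (adjusted p = 0.164). Without Ga it was -0.71 and passed (adjusted p = 0.0172). RPB2 (Polr2b), the second largest subunit, stood at 32.4, 32.6 and 37.0 CPM in CG and at 28.3, 24.7 and 24.3 CPM in EG. It was lower in every EG library and fell by 0.40 ± 0.136 on the log2 scale (adjusted p = 0.0431), a call that was lost without any 1 of G1, G2, G3, Gb or Gc (adjusted p from 0.0889 to 0.143). RPB3 (POLR2C), the partner of RPB11 in assembly, was at 11.1, 10.6 and 9.66 CPM in CG and at 8.29, 8.61 and 6.58 CPM in EG. Its groups did not overlap, but the change of -0.42 ± 0.175 did not pass the test (adjusted p = 0.0843).

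**Figure D2:**
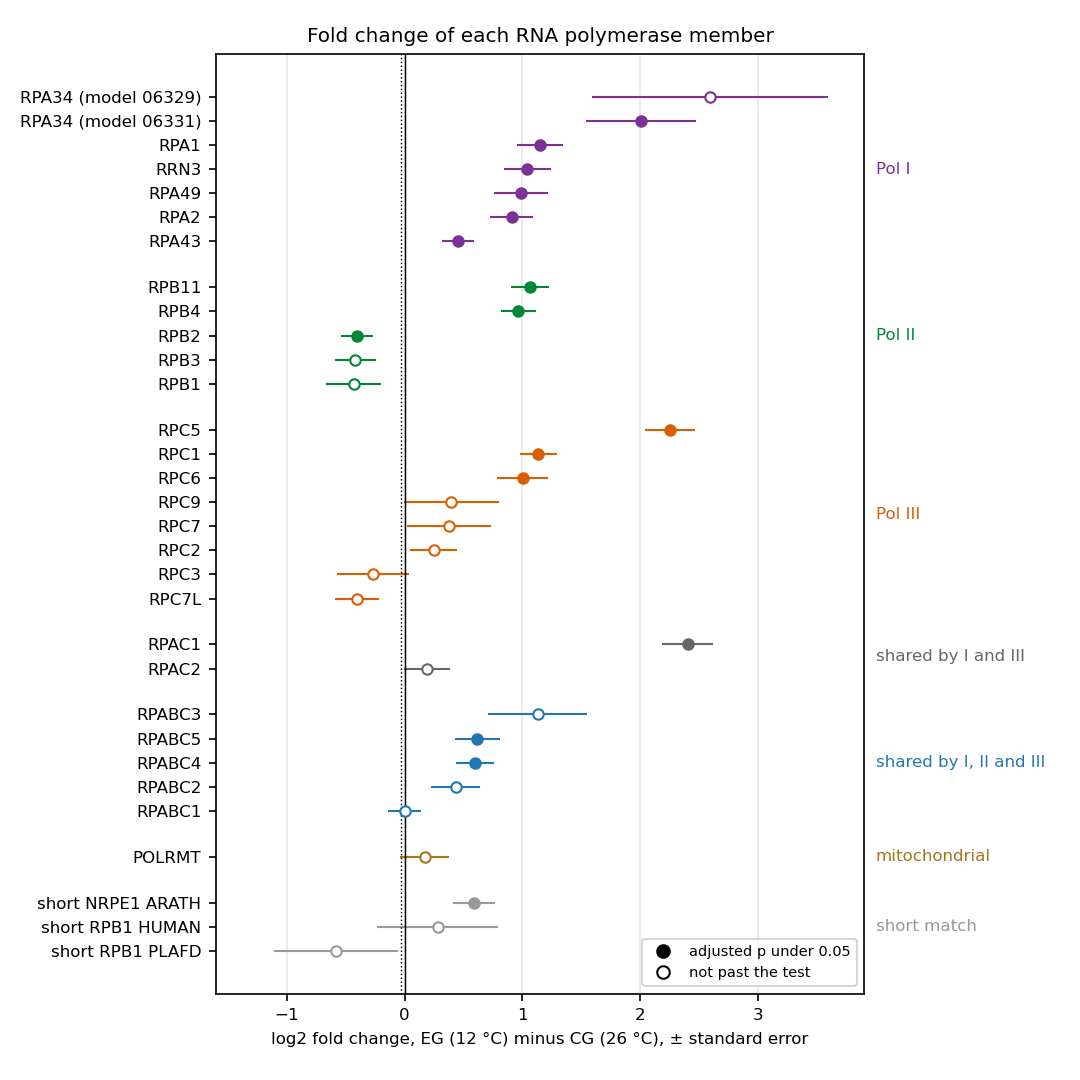
Fitted log2 fold change of each member reported, EG minus CG, with its standard error; filled circles passed the test at an adjusted p under 0.05, the solid line is zero and the dotted line is the median of all genes (-0.03). Pol I members all lie above zero, whereas the Pol II and Pol III members lie on both sides.

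Pol III members spread widely, with 3 of 9 higher, 1 lower and the rest not past the test. Of all tested genes 23.7% were higher and 21.7% lower, and counts this small were not tested against these shares. RPC5 (Polr3e) forms with RPC4 a TFIIF-like heterodimer that aids initiation and termination, and was the Pol III transcript with the highest CPM. Its levels were 35.4, 32.5 and 35.6 CPM in CG and 207, 167 and 121 CPM in EG. The lowest EG library was thus over 3 times the highest CG library, and the log2 fold change was 2.26 ± 0.211 (adjusted p = 0.000178). In EG, RPC5 had the highest FPKM of the 29 members other than the short models.

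RPC1 (POLR3A), the catalytic subunit, was measured at 14.4, 12.7 and 13.2 CPM in CG and at 27.5, 34.8 and 26.2 CPM in EG, and rose by 1.13 ± 0.157 (adjusted p = 0.000962). RPC2 (POLR3B), its partner in the core, was at 11.0, 9.86 and 9.69 CPM in CG and at 9.998, 15.4 and 10.8 CPM in EG. Only Gb was above all CG libraries for RPC2, and the value of 0.25 ± 0.199 did not pass the test (adjusted p = 0.339).

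RPC3, RPC6 and RPC7 make up the heterotrimer that opens the promoter. Of these, RPC6 (POLR3F) passed the test, with 4.66, 6.58 and 5.91 CPM in CG and 11.5, 13.7 and 9.18 CPM in EG and an increase of 1.00 ± 0.219 on the log2 scale (adjusted p = 0.00716). RPC3 (polr3c) gave -0.26 ± 0.304 (adjusted p = 0.508), with Ga lowest of all libraries at 2.45 CPM and Gb at 5.18 CPM. RPC7 (Polr3g) and RPC7L (Polr3gl) are alternative forms of 1 subunit, known in mammals from stem and proliferating cells and from most tissues, respectively. In this liver the RPC7L model was the more abundant, at 18.7 ± 3.87 FPKM in CG against 4.23 ± 1.43 FPKM for RPC7 (SD, n = 3). Its match had an E-value of 5.3e-10, against 9.9e-38 for RPC7, so its identity is less certain. RPC7L was at 11.0, 9.23 and 13.4 CPM in CG and 8.72, 8.13 and 8.54 CPM in EG. Every EG library was lower, without passing the test (-0.40 ± 0.183, adjusted p = 0.106), and RPC7 gave 0.38 ± 0.358 with overlapping groups (adjusted p = 0.422).

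RPC9 (CRCP), a subunit of the Pol III stalk and the counterpart of RPB4, had low levels between 0.883 and 1.97 CPM in all libraries and gave 0.40 ± 0.402 (adjusted p = 0.449).

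Of the 7 shared subunits, 3 rose and none fell, against 23.7% and 21.7% of all tested genes. Their median log2 fold change was 0.60. RPAC1 (POLR1C) forms with RPAC2 the assembly heterodimer of Pol I and Pol III. It stood at 2.60, 2.21 and 2.49 CPM in CG and at 13.7, 14.9 and 10 CPM in EG. Its mean of 2.44 ± 0.203 CPM in CG became 12.9 ± 2.55 CPM in EG (SD, n = 3), and the log2 fold change was 2.40 ± 0.216 (adjusted p = 0.000156). The gene models of RPAC1 (minus strand, 111557 to 116528) and of the Pol I subunit RPA2 (plus strand, 119941 to 126526) are neighbours on scaffold 183, with their starts facing each other across 3412 bases and no gene model between. RPAC2, the smaller partner, was at 8.67, 7.00 and 8.12 CPM in CG and at 9.36, 10.4 and 7.31 CPM in EG. The groups of RPAC2 overlapped, and its 0.19 ± 0.195 did not pass the test (adjusted p = 0.464). For the models of RPAC2 and RPABC4 no gene name, species or E-value of the match was obtained, so their identity is less certain. The RPAC2 length of 683 bases is not a multiple of 3, so its FPKM may not rest on a coding length.

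The 5 subunits common to all of the nuclear enzymes gave values from 0.00 to 1.13, and 2 of them rose. RPABC5 (Polr2l), a small zinc-binding subunit, was at 9.69, 10.6 and 10 CPM in CG and at 17.4, 17.4 and 11.8 CPM in EG, and rose by 0.62 ± 0.188 (adjusted p = 0.0281). RPABC4, another small zinc-binding subunit, was at 8.26, 7.88 and 7.65 CPM in CG and at 13.5, 11.7 and 10.8 CPM in EG, and rose by 0.60 ± 0.160 (adjusted p = 0.0174). Neither call held without any 1 of the CG libraries (adjusted p from 0.0630 to 0.0950 for RPABC5 and from 0.0528 to 0.0629 for RPABC4), and RPABC5 also lost it without Ga or Gb (adjusted p = 0.0740 and 0.0701). Shared subunits called higher thus numbered 1 without any 1 of the CG libraries and 5 without Gc. RPABC3 (Polr2h) was at 1.96, 1.23 and 2.44 CPM in CG and at 4.88, 5.33 and 2.08 CPM in EG. Ga and Gb were high while Gc lay within the CG range, and the value of 1.13 ± 0.419 did not pass the test (adjusted p = 0.0574), but did without Gc (1.45, adjusted p = 0.0142) and with DESeq2 on all libraries (adjusted p = 0.0276). RPABC2 (Polr2f) gave 0.43 ± 0.210 (adjusted p = 0.125). RPABC1 (Polr2e), which contacts the incoming DNA, lay between 16.2 and 19.3 CPM in all 6 libraries and gave 0.00 ± 0.139 (adjusted p = 0.994).

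POLRMT, which transcribes the mitochondrial genome and belongs to another enzyme family, was between 7.43 and 11.5 CPM in all libraries and gave 0.17 ± 0.208 (adjusted p = 0.537). Its gene model spans 6 others. Of the 3 short gene models, the one matched to a plant Pol V subunit was at 4.63, 5.79 and 5.24 CPM in CG and at 7.57, 8.42 and 7.605 CPM in EG, and was called higher (0.59 ± 0.181, adjusted p = 0.0293). The other two, matched to human and Plasmodium RPB1, had levels up to 1.36 CPM and gave 0.28 (adjusted p = 0.684) and -0.58 (adjusted p = 0.399). The E-values of these matches were 9.2e-09 (plant), 7.2e-15 (human) and 9.2e-08 (Plasmodium). Those of the RPA34 models (1.4e-13 and 2.5e-13) and of RPC7L (5.3e-10), which were counted with their enzymes, lay in the same range. The short models were set apart by their length and their match to a largest subunit, and were not counted with any enzyme.

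The EG libraries did not contribute alike. The median ratio of the members to their CG mean was 1.51 in Ga, 1.61 in Gb and 1.21 in Gc, and Gc was the highest EG library for 3 of 32 members. The members' summed level was 340, 358 and 351 CPM in G1, G2 and G3 and 658, 602 and 488 CPM in Ga, Gb and Gc. Each EG library was above each CG library in this sum, and RPC5 alone made up 121 to 207 CPM of it in EG. For the 7 Pol I members the median ratio was 2.15, 2.28 and 1.76 in Ga, Gb and Gc, and for the 5 Pol II members it was 1.01, 0.823 and 0.714.

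Levels of different genes were compared per length, as FPKM. In CG the highest members were RPABC5 at 55.7 ± 1.79 FPKM, RPA43 at 36.0 ± 1.51, RPABC1 at 30.9 ± 2.41, RPB11 at 30.3 ± 2.60 and RPB4 at 25.3 ± 0.272 FPKM (SD, n = 3). RPABC1 and RPB11 overlapped in this order, while the other neighbours among these 5 did not. In the middle of the order, from RPA49 (4.93 FPKM) to RPAC1 (2.19 FPKM), each gene overlapped with the next. In EG the order changed. RPC5 moved from rank 9 (18.2 ± 1.29 FPKM) to rank 1 (68.3 ± 16.4 FPKM) and RPAC1 from rank 27 to rank 12 (9.18 ± 2.29 FPKM), whereas RPB1 moved from rank 13 to rank 20 and RPB2 from 12 to 18. In EG, RPC5 and RPABC5 (68.0 ± 16.3 FPKM) overlapped.

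Subunits of 1 complex, alternative forms of a subunit, and the largest subunits of different enzymes were then compared as the ratio of their FPKM within a library, which does not depend on how libraries are scaled. The 11 pairs were chosen after the levels had been seen, so the ratios are a description; with 3 against 3 libraries an exact permutation test (two-sided) cannot go below p = 0.1. In 7 of the 11 pairs the EG and CG libraries did not overlap, and among the levels of all tested single genes 57.8% did not overlap, with both directions counted. The ratio of RPAC1 to RPAC2 was 0.164, 0.172 and 0.167 in CG and 0.798, 0.779 and 0.745 in EG. The ratio of RPB11 to RPB3, the matching heterodimer of Pol II, was 1.87, 2.08 and 2.48 in CG and 6.45, 5.31 and 6.10 in EG. In each heterodimer the transcript ratio thus moved toward the partner that had risen, by 2.21 and 1.48 on the log2 scale. These ratios restate the changes of the single genes, and protein was not measured.

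Within the cores, the largest and second largest subunits kept overlapping ratios in Pol I (1.23 ± 0.151 in CG and 1.52 ± 0.584 in EG, SD, n = 3) and in Pol II (0.890 ± 0.177 and 0.854 ± 0.192). In Pol III the ratio of RPC1 to RPC2 was 1.01, 0.987 and 1.04 in CG and 2.11, 1.73 and 1.85 in EG. The ratio of RPC6 to RPC3 went from 2.41 ± 0.487 to 6.19 ± 2.35 and that of RPB4 to RPB1 from 2.73 ± 0.300 to 7.41 ± 1.64. None of these had overlapping groups. Between the enzymes, the ratio of RPA1 to RPB1 was 0.402, 0.355 and 0.352 in CG and 1.01, 1.16 and 1.197 in EG, and that of RPC1 to RPB1 went from 0.402 ± 0.0747 to 1.24 ± 0.403. The ratio of RPA1 to RPC1 overlapped between the groups (0.938 ± 0.156 and 0.962 ± 0.272), as did that of RPC7 to RPC7L.

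**Figure D3:**
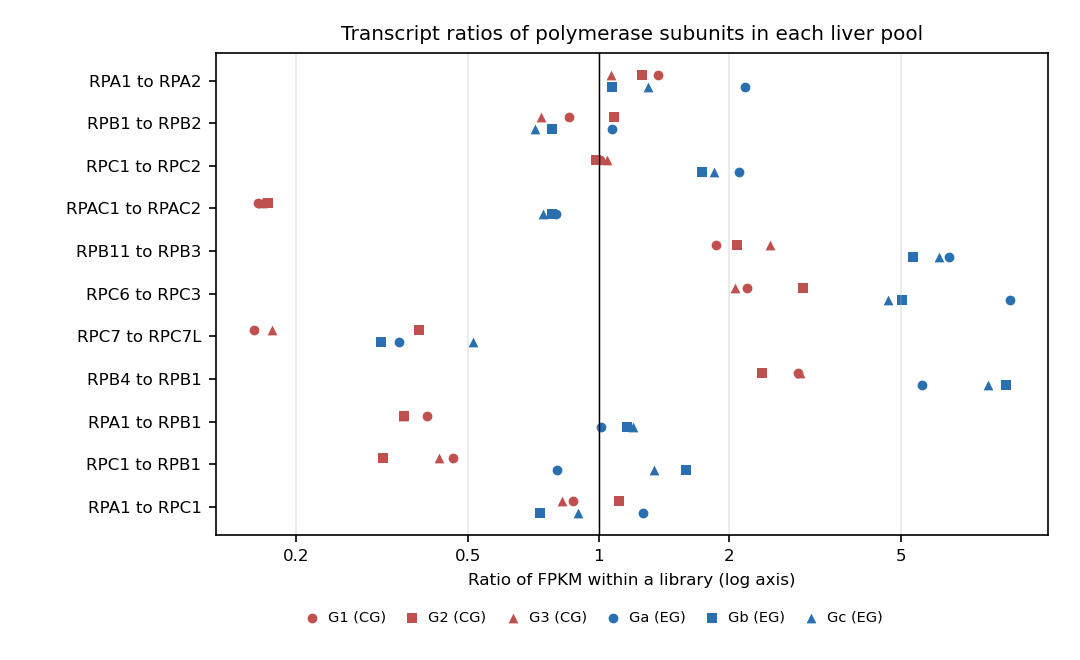
Ratio of the FPKM of subunits within each library (log axis) for 11 pairs, with CG libraries in red and EG libraries in blue; the vertical line marks a ratio of 1. The ratio of RPAC1 to RPAC2 is 0.164 to 0.172 in CG and 0.745 to 0.798 in EG, whereas RPA1 to RPA2, RPB1 to RPB2, RPC7 to RPC7L and RPA1 to RPC1 overlap.

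The genes that work with each enzyme were taken from lists of textbook factors. These lists were chosen with earlier results of these data known, so their counts are a description. Of 19 tested factors of Pol I, 12 were higher and 2 lower, against 23.7% and 21.7% of all tested genes. Their median log2 fold change was 1.30. The list holds nucleolar proteins of ribosome formation besides initiation factors, so its count does not describe initiation alone. UBTF, which binds the ribosomal RNA gene and holds it open, was at 25.4, 28.2 and 26.5 CPM in CG and 143, 140 and 156 CPM in EG, a change of 2.46 ± 0.138 (adjusted p = 6.1e-05). The nucleolar proteins NOLC1 and NCL rose by 2.31 and 2.22. TAF1A, a subunit of the promoter selectivity factor SL1, went the other way, from 2.67, 4.51 and 2.07 CPM in CG to 0.107, 0.413 and 0.0585 CPM in EG (-4.03 ± 0.687, adjusted p = 0.00237). Of other SL1 subunits, TAF1C gave -0.06 (adjusted p = 0.817) and TBP, which is not particular to SL1, rose by 1.05 (adjusted p = 0.013). SL1 as a whole cannot be judged from these transcripts. The histone demethylase KDM4A fell by 0.51, a call lost in each fit that left out 1 library except that without Gb.

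Of 14 tested factors of Pol III, 2 were higher and 6 lower, against 23.7% and 21.7% of all tested genes. Their median was -0.26. BRF1, the TFIIIB subunit that brings Pol III to transfer RNA and 5S genes, was at 8.71, 8.25 and 8.74 CPM in CG and at 2.24, 1.81 and 2.66 CPM in EG, and fell by 1.94 ± 0.215 on the log2 scale (adjusted p = 0.000353). BRF2, its counterpart at the U6 type of promoter, had 2.15, 2.02 and 1.26 CPM in CG and 0.160, 0.476 and 0.234 CPM in EG (-2.66 ± 0.527, adjusted p = 0.00471). Both were therefore lower in each EG library while RPC1, RPC5 and RPC6 were higher. RPC2, RPC3, RPC7, RPC7L and RPC9 did not pass the test. TBP, which TFIIIB also contains, was listed with the Pol I factors only and rose by 1.05 (adjusted p = 0.013). In TFIIIC, which recognises the internal promoter, GTF3C5 fell by 1.44 and GTF3C2 rose by 1.67. GTF3A, the 5S gene factor, rose by 0.97 in 1 of its 2 gene models, a call lost on library totals (0.62, adjusted p = 0.0664), which left 1 factor higher, and MAF1, the repressor of Pol III, gave -0.15 (adjusted p = 0.602). The number of these factors called lower was 3 without any 1 of G1, G2 or Ga, and 1 was higher and 2 were lower under a filter of 10 CPM, which tests fewer genes.

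The 30 tested general initiation factors of Pol II had a median of -0.31. Of these, 9 were higher and 11 lower, against 23.7% and 21.7% of all tested genes. These counts depend on the scaling and were 5 and 14 on library totals and with limma on log2(FPKM + 1), and 8 and 14 with upper quartile factors. GTF2B (1.90), the TFIIH helicase ERCC3 (1.39) and TAF13 (1.35) had the largest increases, and GTF2A1 (-2.01), GTF2H3 (-1.98) and TAF10 (-1.64) the largest decreases. The count of 11 became 7 without any 1 of G1, G3 or Gc. Among elongation factors of Pol II, 12 of 37 were higher and 6 lower, against 23.7% and 21.7% of all tested genes. Their median was 0.33. The list joins factors that aid elongation with factors that restrain it, so its counts give no direction for elongation itself. CDK9, the kinase that releases paused Pol II, rose by 1.76 and SSRP1 by 1.72. XRN2, a nuclease of transcription termination kept on this list, rose by 1.66. MEPCE and LARP7 are parts of the 7SK RNA complex in which CDK9 is kept inactive. The activity of CDK9 was not measured here. A MEPCE model fell by 2.69, from 21.4 CPM in CG to 3.33 CPM in EG. Another fell by 0.60 (adjusted p = 0.0486), from 14.5 to 9.56 CPM, and LARP7 fell by 0.93. Of the pausing factor NELF, NELFE fell by 1.00. NELFA (-0.15, adjusted p = 0.479) and NELFB (-0.00067, adjusted p = 0.999) did not pass the test. The count of 6 lower became 3 without G1 and 4 without any 1 of G2, Ga or Gc. Factors of polymerase assembly, nuclear import and tail modification had 11 of 29 higher and 3 lower, against 23.7% and 21.7% of all tested genes. Their median was 0.33. RUVBL1 (1.98), SLC7A6OS (1.53) and RPAP3 (1.50) rose, and WDR92 (-2.91), the tail phosphatase CTDP1 (-1.45) and RPRD1A (-0.96) fell. Tail phosphatases did not move alike. SSU72 (0.72) and the models of CTDSPL2 (0.46 to 1.34) were called higher, and the tested CTDSP1 model (-0.18) did not pass. RUVBL1, RPAP3 and WDR92 belong to the chaperone machinery that assembles the polymerases.

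**Figure D4:**
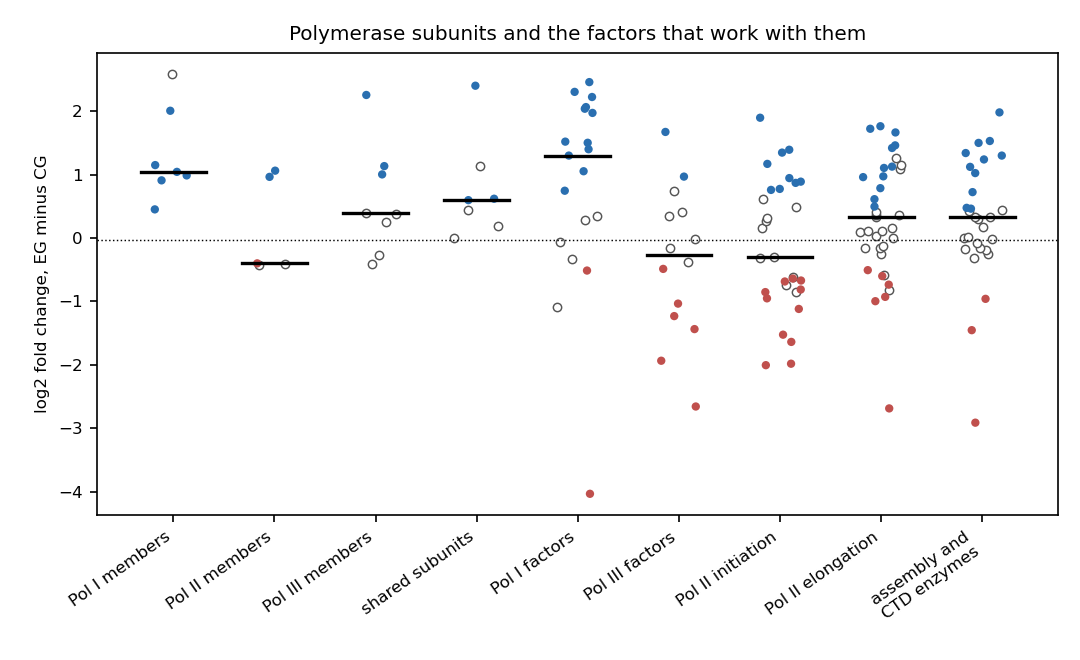
Fitted log2 fold change, EG minus CG, of the members reported by enzyme and of the listed factors that work with them; blue and red points were called higher and lower, open points did not pass the test, bars are medians and the dotted line is the median of all genes (-0.03). Pol I factors have a median of 1.30, Pol III factors one of -0.26.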

How the data were processed

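Liver RNA of 3 CG and 3 EG pools was sequenced. The authors trimmed the reads, aligned them with HISAT2 2.0.4 to a genome of T. fasciatus that they had not published, and obtained expression values with RSEM 1.2.3. The deposited counts are whole reads per gene, and the deposited FPKM are scaled by gene length and library total. The genome build is not given in the sources used here, and positions are as deposited. For 96.6% of genes the length is a multiple of 3, so the length is close to a coding length. The authors' own fold changes, p-values and group means from DESeq were not used.

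Counts were filtered with filterByExpr, scaled by TMM (factors 0.8236 to 1.1465) and tested with edgeR 4.0.16 in R 4.3.3 (quasi-likelihood F test, Benjamini-Hochberg adjustment). The biological coefficient of variation was 29.6%. On simulated counts with 200 changed genes among 14100, the fit recovered 86% of 4-fold changes but only 31% of 2-fold changes. In the data many more genes were called (3398 higher and 3113 lower), which alters the adjustment, so these shares need not hold there. Changes of 2-fold or less can still be missed. Totals of 31150888 to 45548824 counts leave models of few reads imprecise. Alternatives were RLE, upper quartile and unscaled factors, TMM without the 20 most abundant genes, DESeq2 1.42.0, no filter, a filter of 10 CPM in 3 libraries, limma 3.58.1 on log2(FPKM + 1) and log2(FPKM + 0.1), and leaving out each library. 1 Pol III member is counted but not reported here. The other members are named, and from each list of factors at most the 3 called genes with the largest change in each direction and a mean of at least 1 CPM. MAF1, TAF1C, TBP, NELFA, NELFB, SSU72, CTDSPL2, CTDSP1 and the MEPCE model with the smaller decrease were added after their values were seen. Members and lists were chosen with earlier results of these data known.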

Additional observations from a re-analysis of the deposited data

How the results depend on the processing

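Across 15 alternatives, 8 of the 17 called members kept their call wherever they were tested: RPA1, RRN3, RPA34 (the model at position 284394), RPB11, RPB4, RPC1, RPC5 and RPAC1. Members called higher numbered 8 on library totals, 7 of 17 tested under the 10 CPM filter, 9 with limma on either FPKM scale and 11 to 17 when 1 library was left out, against 15. Members called lower numbered 4 with upper quartile factors, 5 on library totals and with limma on either scale, 0 with no filter and 0 to 2 when 1 library was left out, against 2. With no filter, RPB2 (adjusted p = 0.05945) narrowly missed the threshold. The median log2 fold change was 0.33 with upper quartile factors, 0.18 on library totals, 0.29 under the 10 CPM filter, 0.16 and 0.18 with limma on log2(FPKM + 1) and log2(FPKM + 0.1), and 0.47 to 0.63 when 1 library was left out. Pol I members called higher fell from 6 to 3 on library totals and with limma on either scale, and numbered 3 under the 10 CPM filter, which dropped RPA49 and both RPA34 models. Shared subunits called higher went from 3 to 1 with upper quartile factors, on library totals and with limma, to 0 under the 10 CPM filter, which dropped RPAC1 and RPABC4, and to between 1 and 5 when 1 library was left out. With upper quartile factors the median of all genes was -0.22, with 2599 genes higher and 3902 lower. With limma it was -0.24 and -0.36, with 1962 genes higher and 4754 lower and with 1970 and 4700.

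The signs that turned all belonged to members that did not pass the test. RPAC2 gave -0.01 with upper quartile factors, -0.15 on library totals and -0.15 and -0.16 with limma. POLRMT gave -0.03, -0.17, -0.13 and -0.18 under these. RPC2 gave -0.07 on library totals and -0.08 and -0.11 with limma. The short model matched to human RPB1 gave -0.09 on library totals, -0.05 and -0.09 with limma and -0.09 to 0.56 when 1 library was left out, the lowest without Ga. The causes were not tested, beyond the shift of all genes that the scaling itself brings. No paired analysis was possible because CG libraries carry numbers and EG libraries letters. With 3 pools a group, a member that did not pass the test is not shown to be unchanged.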
